A study of Mus musculus with 28 samples.

Results

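Immediate early genes are the first genes that neurons switch on after synaptic activity. Calcium entry and kinase signalling act on transcription factors already bound to their promoters, such as CREB and SRF, so that their transcription needs no new protein. Some of their products are transcription factors that pass the signal on to later genes, and others act at the synapse. In the cortex their RNA is widely read as a trace of recent activity. The 10 genes described here were chosen by name, out of 41549 genes in the deposited count tables. They are the AP-1 factors Fos, Fosb and Junb, the zinc finger factors Egr1 and Egr3, the factors Npas4 and Nr4a1, and the effectors Arc, Homer1 and Bdnf.

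Nuclear RNA of the motor cortex was sequenced in 28 libraries, which came from 7 mice (17 to 23). Every animal received an adeno-associated virus (AAV) vector for the nuclease Cas9 in both hemispheres, AAV-Cas9-miR-124-empty on the left and AAV-Cas9-miR-124-g4 on the right, called empty and g4 here. Nuclei from fixed tissue were stained for the HA tag carried by Cas9 and sorted by flow cytometry into HA-positive and HA-negative nuclei. The question put by this design is what the g4 vector, directed at the microRNA miR-124, changed in the nuclei that held Cas9. Both vectors and both fractions make 4 groups, each with 7 libraries from the same animals. Vector and hemisphere coincided in every animal and cannot be told apart. No untreated animals were among these samples, both HA-negative groups come from injected tissue, and age, strain and sex are not given in the labels used here.

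Between 248612 and 902944 counts were obtained per library, over 8687 to 13668 detected genes. Ribosomal RNA, mitochondrial included, made up 17.0% to 40.4% of these counts. Fewer than 10000 genes were detected in the empty HA-positive libraries of animals 17, 21 and 22 and in the g4 HA-positive library of animal 18. In animal 19 the HA-positive library of the g4 side contained Xist (614 CPM, library-scaled counts) together with Y-linked RNA (a sum of 45.7 CPM), and its summed oligodendrocyte markers reached 1539 CPM against a group median of 174 CPM. Its sums for microglia (364 against a median of 33.0 CPM), oligodendrocyte precursors (111 against 10.1) and striatal projection neurons (900 against 372) were also its group's highest. Its inhibitory neuron sum was the lowest (2249 against a median of 3511 CPM). The other libraries of animal 19 had no Xist count and held Y-linked RNA. The same held for every library of animals 17, 18 and 20. Every library of animals 21, 22 and 23 held Xist. Their Y-linked RNA was at 0, except for 3.71 CPM in the empty HA-negative library of animal 22. Read from these RNAs, sex divides the animals into 17 to 20 and 21 to 23. The Mir124a-2 hairpin, a check of the vector, had counts in 6 of the 7 g4 HA-positive libraries (57 counts in all) and 0 counts in each library of the other 3 groups, while Mir124a-1 and Mir124a-3 had no count anywhere. HA-positive nuclei were rich in markers of inhibitory neurons, with sums of 3687 to 5130 CPM (empty) and 2249 to 4338 CPM (g4) against 1066 to 1594 CPM over both HA-negative groups. Excitatory neuron markers reached 1241 to 2364 CPM in HA-positive and 2117 to 2774 CPM in HA-negative libraries. In nuclei pooled by sorting, fewer cells of a type that express a gene and less RNA per cell cannot be told apart.

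Promoter sequences were available in the RefSeq table (GRCm38.p6, 250 bases before to 50 after each start) for 7 of the 10 genes, with 14 promoters. None was found for Egr1, Egr3 or Arc. TGACG, the core of the cyclic AMP response element (CRE) to which CREB binds, was searched on both strands. Each of the 7 genes had it in 1 promoter, so that 7 of 14 promoters held it, against 20.8% of all 32851 promoters. Bdnf alone had 7 of the 14 promoters, and the shares were not adjusted for base composition. The whole element TGACGTCA, which contains TGACG, was in 0 of the 14 promoters (1.79% of all). The CArG box, the site of SRF, was in 0 of 14 (1.63% of all), and the EGR site GCGTGGGCG was in 0 of 14 (0.612% of all). The AP-1 site TGANTCA was in 1 of 14, a promoter of Bdnf (7.81% of all). The windows below, printed on the strand of the gene with TGACG or its complement CGTCA in capitals, show the match in the 2 genes on which most of the results turn and for which a promoter was found, Npas4 and Nr4a1, and in Fos and Homer1 for comparison. A match is a description of the letters and not a bound site. Sites outside these spans were not searched, and with background shares this low 0 of 14 promoters says little. The counts of 0 therefore do not show that these genes lack the sites.
Npas4, minus strand, chr19:4990123-4990152, match 169 bases before the start: gacgtcacgggaTGACGtcggaagtctggg
Nr4a1, plus strand, chr15:101266794-101266823, match 40 bases before the start: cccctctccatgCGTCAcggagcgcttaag
Fos, plus strand, chr12:85473812-85473841, match 66 bases before the start: agttccgcccagTGACGtaggaagtccatc
Homer1, plus strand, chr13:93303705-93303734, match 40 bases before the start: gtgagcggagggTGACGtatgtgcggagag
In Npas4 a second match on the other strand, 179 bases before the start, lies within the same window. Nr4a1 had 4 matches in its promoter and Homer1 had 3 in 1 of its promoters.

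Egr1 and Homer1 were the most abundant of the 10 genes by count, at 315 and 281 CPM on average over the 28 libraries, higher than 98.7% and 98.4% of genes with a count. Egr3 (132 CPM) and Arc (123 CPM) followed, then Nr4a1 (58.3 CPM), Fos (33.7 CPM) and Bdnf (29.9 CPM). Junb (17.0 CPM), Npas4 (14.8 CPM) and Fosb (13.1 CPM) were the lowest. The 7 others were detected in all 28 libraries, while Fosb and Junb were detected in 26 and Npas4 in 23. The summed level of the 10 genes was 615 to 1204 CPM (empty) and 669 to 1222 CPM (g4) in HA-positive libraries, and 1014 to 1249 CPM and 976 to 1266 CPM in the HA-negative ones. The HA-positive groups therefore spread wider and reached lower than the HA-negative groups, with overlapping ranges. In empty HA-positive libraries the sum was 790 to 1204 CPM in animals 17 to 20 and 615 to 729 CPM in animals 21 to 23. With g4 these sets overlapped, at 877 to 1222 and 669 to 984 CPM, the 877 CPM being the library of animal 19. They also overlapped in both HA-negative groups. The part of sex in these levels was not tested.

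Levels were also divided by the length of the annotated exons (GENCODE, GRCm38), since a long transcript collects more counts. The labels do not say whether introns were counted, so these values only order the genes. In empty HA-negative nuclei Egr1 stood at 84.4 CPM per kb, Arc at 42.5, Egr3 at 30.7, Homer1 at 25.3, Nr4a1 at 17.7, Fos at 14.5, Junb at 6.23, Npas4 at 5.45, Bdnf at 3.16 and Fosb at 2.25 CPM per kb. Egr1 alone stayed clear of the next gene, with a lowest library of 63.7 against a highest of 59.2 CPM per kb for Arc, and each of the other genes overlapped its neighbour in that order. The same gap was present in g4 HA-negative nuclei (65.6 against 60.5 CPM per kb). In both HA-positive groups every gene overlapped its neighbour, and Npas4 was last in empty HA-positive nuclei at 0.712 CPM per kb.

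**Figure D1:**
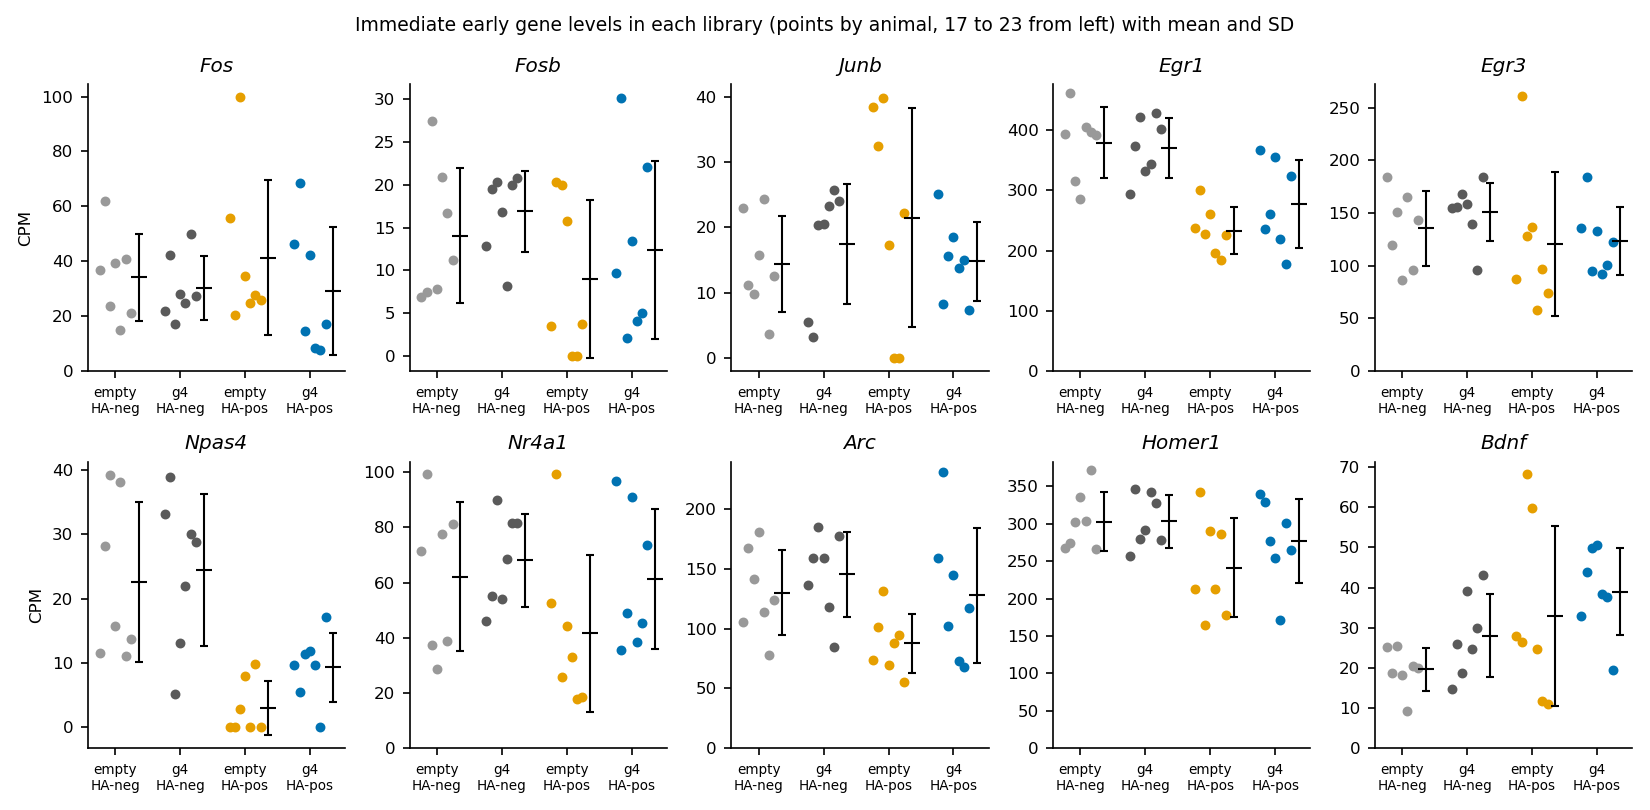
Level in CPM (y axis, linear) of each of the 10 genes in the 7 libraries of each group, as points ordered by animal 17 to 23, with the mean and SD beside them. Egr1 and Npas4 sat lower in HA-positive than in HA-negative nuclei, and for Npas4 the empty groups did not overlap.

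The effect of the vector was asked first in HA-positive nuclei. None of the 7 genes with enough counts to be tested there rose or fell with g4 against empty, where 3 of 5011 genes were called in all (0.0599%) at an adjusted p under 0.05 (edgeR's quasi-likelihood test, Benjamini-Hochberg over all genes tested). At an unadjusted p under 0.05 the count was also 0 of 7, against 335 of 5011 genes. The fitted log2 fold change was above 0 for 6 of the 7, with a median of 0.24 against -0.0066 over all genes tested. Of these 6, Bdnf (-0.12) and Egr3 (-0.44) turned below 0 without the libraries with few genes detected, and Egr3 also with DESeq2 size factors (-0.0070). Cell type markers leaned as well, with none called. Excitatory neuron markers were above 0 for 10 of 12 (median 0.33) and astrocyte markers for 5 of 6 (0.63). Inhibitory neuron markers were below 0 for 12 of 14 (-0.34). The part of these cell types in the lean of the members was not tested. All comparisons here share libraries with others (the empty HA-positive libraries also enter the comparison of fractions), so their values are not independent.

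Among the AP-1 factors, which pair as Fos-Jun dimers on AP-1 sites, Fos was at 20.3, 27.7 and 99.7 CPM (lowest, median, highest) in empty and 7.54, 17.1 and 68.6 CPM in g4 HA-positive libraries. The groups overlapped almost wholly. Its log2 fold change was -0.51 ± 0.48 (SE, edgeR, adjusted p = 0.896). This value rested on animal 19, at 99.7 CPM in empty, the highest of its group, and 14.6 CPM in g4. Without both of these libraries the log2 fold change was 0.0029. Fosb and Junb did not reach the count filter in any comparison of 2 groups. Fosb was at 9.02 ± 9.24 CPM in empty and 12.4 ± 10.4 CPM in g4 HA-positive nuclei (SD, n = 7; exact two-sided permutation test over 3432 splits, adjusted p = 1.0). Junb, the partner of the Fos proteins in such dimers, was at 21.5 ± 16.8 CPM in empty and 14.8 ± 6.07 CPM in g4 nuclei (SD, n = 7; exact permutation test, adjusted p = 1.0). Both genes had 0 counts in the empty libraries of animals 21 and 22, 2 of the libraries with few genes detected, where a count of 0 allows up to 8.28 and 5.93 CPM.

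Egr1, a zinc finger factor induced by most forms of neuronal activity, was at 184, 228 and 300.0 CPM in empty and 178, 261 and 367 CPM in g4 HA-positive libraries. The g4 library was the higher one in 5 of 7 animals and the groups overlapped. Its log2 fold change was 0.25 ± 0.17 (SE, edgeR, adjusted p = 0.833). Egr3, a second factor of this family, was at 58.0, 96.9 and 261 CPM in empty and 92.0, 122 and 184 CPM in g4 libraries, with a log2 fold change of 0.0025 ± 0.27 (edgeR, adjusted p = 0.997). The highest value belonged to the empty library of animal 18, well above the next at 137 CPM.

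Nr4a1, an orphan nuclear receptor, was at 17.8, 33.1 and 99.3 CPM in empty and 35.7, 48.9 and 96.7 CPM in g4 HA-positive libraries. The g4 library was higher in 6 of 7 animals, animal 18 being the exception, and the log2 fold change was 0.54 ± 0.37 (SE, edgeR, adjusted p = 0.833). Npas4, a bHLH-PAS factor that responds to calcium entry and to few other signals, was below the count filter in HA-positive nuclei. It had 0, 0, 1, 5, 0, 5 and 0 counts in the empty libraries of animals 17 to 23, and 5, 2, 11, 7, 7, 0 and 7 counts in the g4 libraries. The mean level was 2.94 ± 4.23 CPM in empty and 9.30 ± 5.38 CPM in g4 libraries (SD, n = 7), and g4 was higher in 6 of 7 animals. The difference did not pass the exact two-sided permutation test once adjusted over all genes with a count (p = 0.039, adjusted p = 0.882). Even genes at the smallest p that the splits allow (0.000583) had an adjusted p of 0.464 in this exact permutation test. The lack of a call there therefore says little about Npas4, Fosb or Junb. The log2 ratio of means was 1.66 with all animals, 2.60 without animal 22 (exact permutation, p = 0.00433, adjusted p = 0.838) and 1.22 without animal 23 (p = 0.123, adjusted p = 1.0). With only the g4 library of animal 19 left out, the ratio was 1.60 (exact permutation, p = 0.0589, adjusted p = 0.893).

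Of the effectors, Arc, which acts in AMPA receptor endocytosis, was at 55.6, 88.3 and 131 CPM in empty and 67.9, 117 and 230 CPM in g4 HA-positive libraries. It had the smallest p of the tested members, at a log2 fold change of 0.53 ± 0.26 (SE, edgeR, unadjusted p = 0.0523, adjusted p = 0.736), and was higher with g4 in 4 of 7 animals. Homer1, a scaffold of the postsynaptic density whose short activity-induced isoform cannot be separated from the long ones in counts per gene, had a log2 fold change of 0.18 ± 0.18 (edgeR, adjusted p = 0.902). Bdnf, a secreted neurotrophin transcribed from several promoters, had 0.24 ± 0.40 (edgeR, adjusted p = 0.955). Neither gene was higher with g4 in more than 5 of the 7 animals.

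In HA-negative nuclei, from the same tissue but without detected Cas9, 0 of 6262 genes were called between g4 and empty (0.0%; edgeR, 236 at an unadjusted p under 0.05, and 1 called by DESeq2), and so 0 of the 8 members tested. Bdnf had the largest difference, with 9.27, 20.0 and 25.5 CPM in empty and 14.7, 25.9 and 43.2 CPM in g4 libraries and a log2 fold change of 0.53 ± 0.35 (SE, edgeR, adjusted p = 0.999). The other 7 lay between -0.16 ± 0.32 (Fos) and 0.16 ± 0.17 (Arc). Egr1 was at 378 ± 58.9 CPM in empty and 370.5 ± 49.8 CPM in g4 libraries (SD, n = 7), and Homer1 at 303 ± 39.6 and 303 ± 35.2 CPM.

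The difference between the vector's effect in HA-positive and in HA-negative nuclei was fitted over all 28 libraries. It was called for 0 of 7197 genes (0.0%; edgeR, 359 at an unadjusted p under 0.05) and for 0 of the 9 members tested. The largest was that of Npas4, at 1.31 ± 0.86 on the log2 scale (SE, edgeR, adjusted p = 0.996), followed in size by Junb at -0.78 ± 0.78. Arc had 0.37 ± 0.31 and Egr1 0.30 ± 0.20. A vector effect that differed between the fractions was therefore not detected for any of these genes at this depth.

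**Figure D2:**
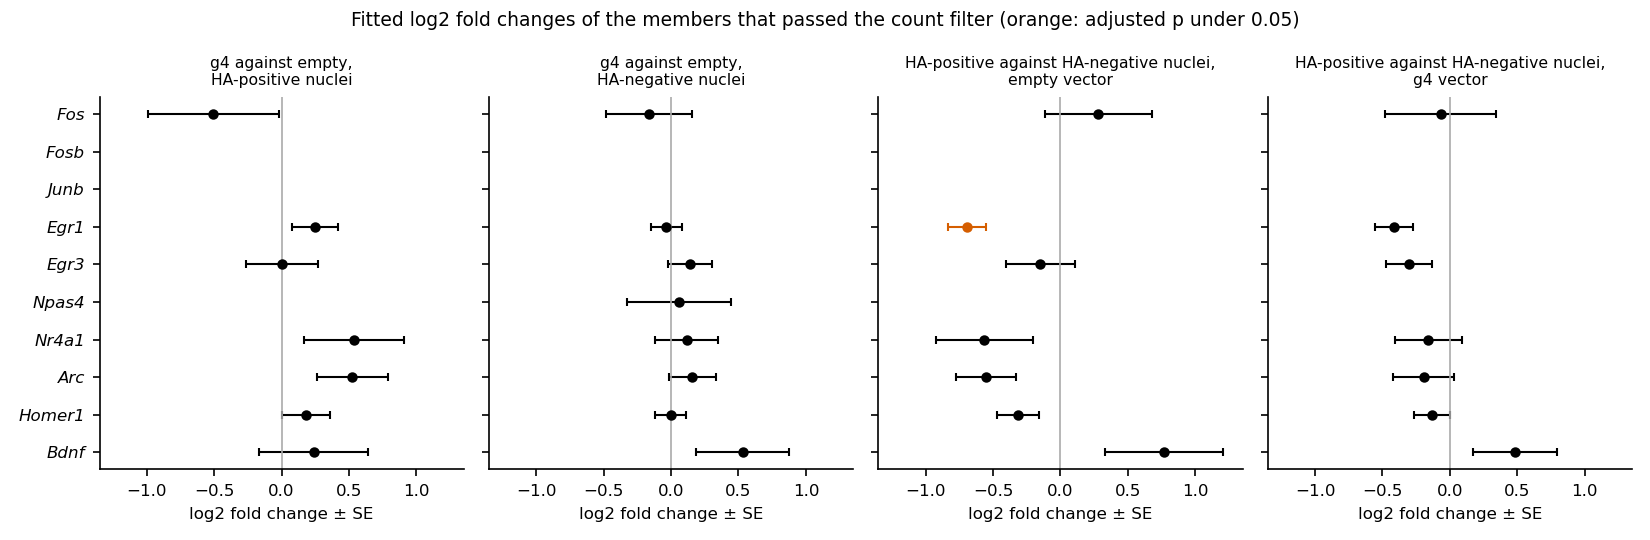
Fitted log2 fold change (x axis, points) with its standard error (bars) for the members that passed the count filter in each comparison of 2 groups. Egr1 in the comparison of HA-positive with HA-negative nuclei of the empty hemisphere, drawn in orange, is the only one past the adjusted threshold.

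The fractions themselves differed more. HA-positive nuclei of the empty hemisphere had 1 of 7 tested members lower than HA-negative nuclei, Egr1, and none higher, where 388 of 5538 genes were called (7.01%), 194 of them lower (3.5%). With 7 genes, 1 call is near that background share. The median log2 fold change of the 7 was -0.31 against 0.012 over all genes tested, and 5 of 7 were below 0.

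Egr1 was at 184, 228 and 300.0 CPM (lowest, median, highest) in empty HA-positive and 286, 393 and 461 CPM in empty HA-negative libraries. It was lower in the HA-positive library of 7 of 7 animals, and the ranges overlapped only at 286 to 300.0 CPM. Egr1 fell by 0.70 ± 0.14 on the log2 scale (SE, edgeR, adjusted p = 0.00137), a level 1.62 times higher in HA-negative nuclei. Egr1 was still called without each animal in turn (-0.79 to -0.64) and without the libraries with few genes detected (-0.58, edgeR, adjusted p = 0.00999). The exact permutation test of mean CPM, a coarser test adjusted over 17753 genes, gave p = 0.00117 and adjusted p = 0.054. In the same libraries inhibitory neuron markers were called higher for 10 of 13 tested genes, and excitatory neuron markers were called lower for 5 and higher for 1 of 14. Oligodendrocyte markers summed to 52.0 to 130 CPM against 1253 to 2242 CPM, and microglia markers to 6.99 to 44.5 CPM against 283 to 635 CPM, with Cx3cr1, P2ry12, C1qa, Gpr34 and Siglech at 0 in the empty HA-positive libraries. Markers of striatal projection neurons summed to 239 to 541 CPM against 1180 to 3034 CPM, with 7 of 8 tested genes called lower and Adora2a and Isl1 at 0. Astrocyte markers summed to 691 to 1467 CPM against 1283 to 1671 CPM, with 1 of 6 called lower (Slc1a2, a glutamate transporter, at -0.68). The part of these cell types in the level of Egr1 was not tested.

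With the g4 vector Egr1 was at 178, 261 and 367 CPM in HA-positive and 294, 373 and 428 CPM in HA-negative libraries. It was lower in HA-positive nuclei in 5 of 7 animals, by a log2 fold change of -0.42 ± 0.14 that did not pass the threshold (SE, edgeR, adjusted p = 0.0779). Without animal 17, whose g4 HA-positive library was the highest of its group, it did (-0.54, adjusted p = 0.0308). Here 0 of 7 members were called, where 401 of 6264 genes were (6.4%; 3.08% lower). The 0.30 ± 0.20 given above is the test of the difference between the 2 vectors, and it did not pass.

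Npas4 showed the widest gap between fractions of the 10 genes. In empty HA-negative libraries it was at 11.1, 15.7 and 39.3 CPM (96 counts in all), and in empty HA-positive libraries at 0.0, 0.0 and 9.88 CPM (11 counts in all). The groups did not overlap, which held with HA-positive lower for 217 of 17753 genes (1.22%), and Npas4 was lower in 7 of 7 animals. At the mean level of the HA-negative libraries, 6.08 to 14.3 counts would have been drawn in each HA-positive library, where 0 to 5 were found. The mean was 7.65 times higher in HA-negative nuclei (2.94 ± 4.23 against 22.5 ± 12.5 CPM, SD, n = 7).

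The exact two-sided permutation test gave the smallest p that 3432 splits allow (p = 0.000583, adjusted p = 0.0351), a threshold that 295 of 17753 genes passed (1.66%). The adjusted p of this exact permutation test did not pass without 1 animal (0.0834 to 0.105, at log2 ratios of -3.77 to -2.54 against -2.94 with all, with fewer splits to draw on), in the sign-flip test within animals (p = 0.0156, the smallest possible, adjusted p = 0.337) or without the libraries with few genes detected (log2 ratio -3.07, adjusted p = 0.298). Without any 1 animal the unadjusted p was again the smallest possible (exact permutation, 0.00216). Fitted by edgeR without the count filter, Npas4 fell by 2.68 ± 0.74 on the log2 scale (SE, adjusted p = 0.0127), with the animal as a block the log2 fold change was -3.03 ± 0.91 (adjusted p = 0.0361), and without the libraries with few genes it was -2.75 (adjusted p = 0.00766). That fit lost the call without animal 18, 19 or 21 at log2 fold changes of -2.41, -2.49 and -2.30 (edgeR, adjusted p = 0.0677, 0.0888 and 0.0858). In the 4 libraries without a count, 0 counts allow up to 6.08 to 11.1 CPM, so that the lowest HA-negative library at 11.1 CPM lies at the edge of what one such library can tell. The markers given beside Egr1, those of striatal projection neurons and astrocytes included, come from the same libraries, and their part in the level of Npas4 was not tested.

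With the g4 vector Npas4 was at 0.0, 9.67 and 17.1 CPM in HA-positive and 5.09, 28.8 and 38.9 CPM in HA-negative libraries. It was lower in 6 of 7 animals and the ranges overlapped. The log2 ratio of means was -1.39, and the difference did not pass the adjusted test (exact permutation, p = 0.0128, adjusted p = 0.255), where 0 of 18208 genes passed (0.0%; 1915 at an unadjusted p under 0.05). Even genes at the smallest p that the splits allow (0.000583) had an adjusted p of 0.0689 in this exact permutation test. A call with empty and none with g4 is therefore not a test of a difference between the vectors.

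**Figure D3:**
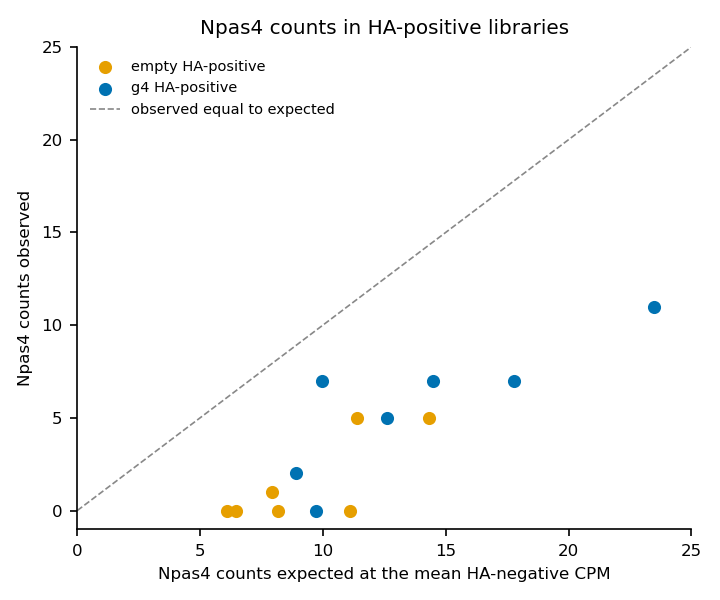
Npas4 counts found in each HA-positive library (y axis) against the counts that its depth would give at the mean level of the HA-negative libraries of the same vector (x axis). All 14 libraries lie below the dashed line of equality, the empty ones at 0 to 5 counts.

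The other members did not pass between the fractions. Arc was at 55.6, 88.3 and 131 CPM in empty HA-positive and 77.8, 124 and 181 CPM in empty HA-negative libraries, lower in 6 of 7 animals (log2 fold change -0.55 ± 0.22, SE, edgeR, adjusted p = 0.146). Nr4a1 (-0.57 ± 0.36, adjusted p = 0.425) and Homer1 (-0.31 ± 0.16, adjusted p = 0.277) were also lower in 6 of 7 animals. Bdnf had the opposite sign with both vectors, at 0.77 ± 0.44 (edgeR, adjusted p = 0.352) with empty and 0.48 ± 0.31 (adjusted p = 0.461) with g4. It was higher in HA-positive nuclei in 5 of 7 and 6 of 7 animals.

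Fos had 0.28 ± 0.40 with empty and -0.069 ± 0.41 with g4, and Egr3 had -0.15 ± 0.25 and -0.30 ± 0.17 (log2 fold changes, SE, edgeR). With g4, Arc was at -0.20 ± 0.23, Nr4a1 at -0.16 ± 0.25 and Homer1 at -0.13 ± 0.14. Fosb and Junb, below the filter, differed by log2 ratios of -0.64 and 0.58 with empty and -0.45 and -0.24 with g4 (exact permutation test, adjusted p = 0.85, 0.865, 0.913 and 0.993).

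**Figure D4:**
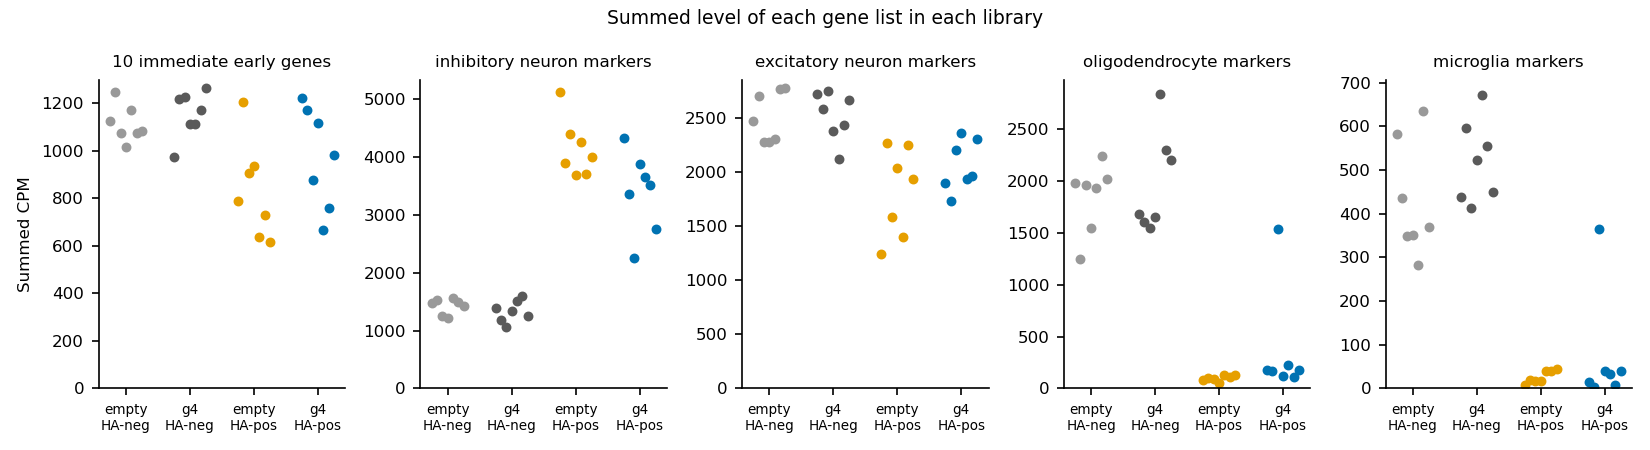
Summed CPM (y axis, from 0) of the 10 immediate early genes and of 4 lists of cell type markers in each library (points) of the 4 groups. The inhibitory neuron sum was higher in every HA-positive library than in any HA-negative one, and the 1 high g4 HA-positive point among oligodendrocyte markers (1539 CPM) is the library of animal 19.

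Other genes of the pathway were read from lists taken whole. Of 50 further activity-induced genes, 19 were tested between the fractions of the empty hemisphere, where 2 rose and 3 fell (median log2 fold change -0.089, against 0.012 over all genes and 7.01% of all genes called). Vgf, a secreted neuropeptide precursor, rose by 0.85, while Nptx1, a neuronal pentraxin at excitatory synapses, fell by 1.12 and Rgs2, a regulator of G protein signalling, fell by 0.96 on the log2 scale. With g4, 1 of 21 rose (Scg2, a secretogranin, at 0.92) and 1 fell (Rasgrp1, a Ras activator, at -0.46), where 6.4% of all genes were called.

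Of 51 calcium, kinase and transcription factor inputs to these genes, 42 were tested and 1 rose and 3 fell with empty, against the same 7.01% of all genes. Rasgrf2, a calcium-dependent Ras activator, rose by 1.05, Ppp3ca, the catalytic subunit of calcineurin, fell by 0.74 and Mrtfb, a coactivator of SRF, fell by 0.68. With g4, 3 of 42 fell, Rps6ka5 (by 1.37), Ppp3ca (by 0.66) and Mrtfb (by 0.56), and none rose, against 6.4% of all genes. Creb1 itself was not called in either.

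Of 34 partners, corepressors and receptors of the members, 2 of 21 tested rose and 1 fell with empty, again beside 7.01% of all genes. Arnt2, the dimer partner of Npas4, rose by 0.83 with empty and by 0.68 with g4, so that Npas4 and its partner had opposite signs. Cacng2, the AMPA receptor auxiliary protein stargazin, rose by 1.19 and 1.00, and Sorcs1, a sorting receptor, fell by 2.22 with empty. Of 25 tested with g4, 2 rose and 2 fell (6.4% of all genes called), among them Grm5, a glutamate receptor bound by Homer1, at -0.49. Between g4 and empty, none of these 3 lists had a called gene in either fraction (17, 40 and 19 tested in HA-positive and 22, 43 and 24 in HA-negative nuclei).

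Matches to the seed of miR-124 were counted in the longest annotated 3′ UTR, since the vector is named for this microRNA. Of the 10 genes, 4 had 1 match each, against 20.7% of 21084 genes with any. These were GTGCCTT in Egr1, Npas4 and Nr4a1 and TGCCTTA in Homer1, and the longer site that joins both was in none. The 3′ UTRs of the 10 genes ran from 485 (Junb) to 4349 bases (Homer1), against a median of 1087 bases over all. The shares were not adjusted for this length. The g4 against empty log2 fold changes in HA-positive nuclei were 0.25 ± 0.17, 0.54 ± 0.37 and 0.18 ± 0.18 for Egr1, Nr4a1 and Homer1 (SE), and the log2 ratio of means was 1.66 for Npas4. Of the genes without a match, Arc had 0.53 ± 0.26, Bdnf 0.24 ± 0.40, Egr3 0.0025 ± 0.27 and Fos -0.51 ± 0.48. Fosb and Junb, also without a match, had log2 ratios of means of 0.46 and -0.54. None of these passed the test, and the 2 sets overlap in value.

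Libraries of one group also varied among themselves, and here Egr1 and Nr4a1 went together. After each group's mean was taken off, Pearson's r of log2(CPM + 5) between them was 0.80 over the 28 libraries (Spearman's rho 0.82), and each was the nearest of 5848 genes to the other. It was 0.81 (empty) and 0.88 (g4) in HA-positive libraries and 0.86 and 0.89 in the HA-negative ones, and 0.83 without the 2 libraries farthest from the median. These are descriptions over libraries that share animals. Within groups the level of Egr1 had r = 0.26 with log2 total counts and 0.30 with genes detected, and Nr4a1 had 0.36 and 0.28. Between these genes and all others the median r was 0.038 (Egr1) and 0.035 (Nr4a1).

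**Figure D5:**
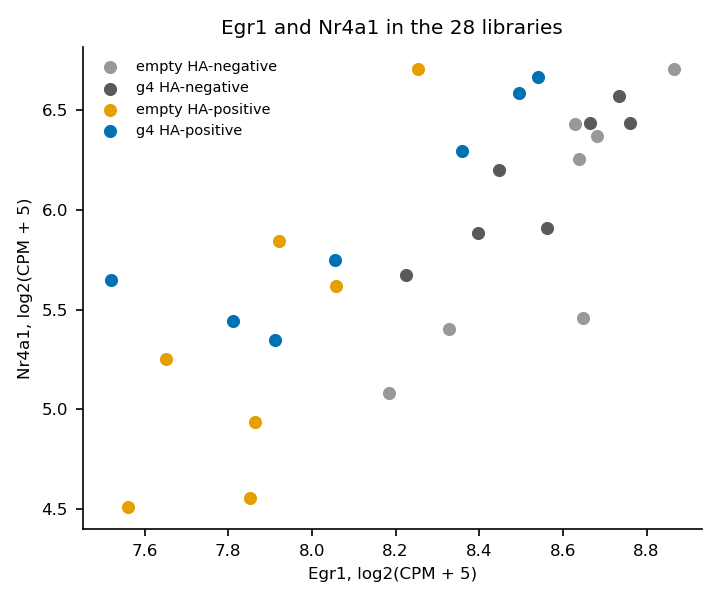
Nr4a1 (y axis) against Egr1 (x axis) in the 28 libraries, both as log2(CPM + 5), coloured by group. Within each group the libraries with more Egr1 also had more Nr4a1, with r from 0.81 to 0.89.

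Of the 21 pairs among the 7 members with at least 20 CPM, 20 had a positive r, with a median of 0.17 and a range from -0.037 to 0.80. Fos and Arc followed at 0.50, but this differed between groups, from 0.98 in g4 HA-positive to -0.59 in g4 HA-negative libraries, and was 0.30 without the 2 farthest libraries. Egr3 and Nr4a1 had 0.48 and Egr3 and Arc 0.46, each with a negative value in 1 of the 4 groups. The genes most like the others in this measure were Zbtb1 for Fos (0.62), Pcdhac2 for Egr3 (0.78), Cdh13 for Arc (0.69), Enpp2 for Homer1 (0.68) and Kdelr2 for Bdnf (0.74). After Nr4a1, the genes nearest to Egr1 were Cacna1i (0.67) and Phf3 (0.65), and Phf3 was also among the 3 nearest to Nr4a1 (0.65).

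Whether the 2 hemispheres of an animal share a level of these genes could not be decided with 7 animals. Over 7 animals, Pearson's r between left and right HA-positive libraries ran from -0.15 for Arc to 0.78 for Bdnf (exact permutation test over all pairings, p = 0.0242, adjusted p = 1.0 over 5780 genes; Spearman's rho 0.75, p = 0.0663, adjusted p = 0.99; r = 0.60 without the 2 farthest animals). In HA-negative libraries Arc had the highest, r = 0.79 (exact permutation, p = 0.0343, adjusted p = 0.856 over 5835 genes; rho 0.64, p = 0.139, adjusted p = 0.937; r = 0.57 without the 2 farthest animals). Of all genes 0 passed the adjusted test in either fraction, with 256 and 332 at an unadjusted p under 0.05, and the median r was 0.01 and 0.073. Egr1 and Nr4a1, which went together within groups, had r = 0.49 and -0.072 between the hemispheres in HA-positive and 0.029 and -0.24 in HA-negative nuclei.

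Gene models limit a few of these values. Junb overlaps Prdx2 on the other strand and Bdnf overlaps the antisense gene Gm45346, and since the strand setting of the counting is not given, reads of such pairs cannot be told apart. Homer1 overlaps 2 unclassified genes on its own strand. In GRCm38, Npas4 lies on chromosome 19 from 4984355 to 4990316 on the minus strand, Nr4a1 on chromosome 15 from 101254269 to 101274795 on the plus strand and Egr1 on chromosome 18 from 34859823 to 34864984 on the plus strand. None of these 3 overlaps another annotated gene.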

How the data were processed

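The authors deposited raw counts per gene, 1 table for HA-positive and 1 for HA-negative libraries, as the labels name them, and all values are whole numbers. Per the submitters' processing notes the genome build was GRCm38. No source used here gives the aligner, the counter, the strand setting or whether molecular identifiers were used. Missing cells were read as 0, and 1 entry without a gene name was left out, which left 41549 genes, of which 41474 matched GENCODE M21. Groups and animal numbers come from the sample titles. For some animals the title and the column name differ by 1, and the sample descriptions tie each sample to its column.

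The test was edgeR's two-sided quasi-likelihood test (version 4.0.16, R 4.3.3) with TMM scaling, a robust fit and filterByExpr for low counts, run on the libraries of the groups compared, without the animal as a block. Calls were made at 0.05 after Benjamini-Hochberg adjustment over all genes tested. CPM uses 1 set of TMM factors over all libraries. Members below the filter were tested by exact permutation of mean CPM, adjusted over all genes with a count. Counting error alone is covered by the limits given for 0 counts, set at 3 counts. The edgeR and permutation scripts were tested on simulated data.

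Libraries pair by animal, per the labels. Deviations from the group means correlated between -0.106 and 0.152 for the pairs of the 4 comparisons of 2 groups. The unblocked test treats all libraries compared as independent, although each animal gave 1 to every group.

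All 10 members are named whatever their values. Of the other lists the 3 called genes of the largest change are named, and as the genes most like a member those with the highest within-group r. Members and lists were chosen with earlier results of these data known. Alternatives were DESeq2 1.42.0, its size factors, no filter, the animal as a block, leaving out each animal, the libraries under 10000 genes or the g4 HA-positive library of animal 19, and log2(CPM + 1).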

Additional observations from a re-analysis of the deposited data

Results flagged for a closer look

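In the empty HA-positive group 1 library stood far above the other 6 for 2 of the genes, by the ratio of its gap to the group's whole range. Egr3 was at 261.5 CPM in the library of animal 18, where the next highest was at 137 CPM. Nr4a1 was at 99.3 CPM in the same library, where the next was at 52.4 CPM. Chance alone places about 1 in 20 groups past this limit, and 40 groups were examined, of which these 2 passed. In the same library Egr1 (300.0 CPM) and Homer1 (343 CPM) were also the highest of their group, while Npas4 had 0 counts and Fos was the lowest of its group at 20.3 CPM. That library had 507072 total counts and 11217 genes detected, both within the range of the others.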

How the results depend on the processing

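For g4 against empty in HA-positive nuclei the 3 calls became 1 with the replicate block, 11 with DESeq2, 28 without a filter, 5 without the g4 library of animal 19, 0 without the libraries under 10000 genes and 1 to 4 without 1 animal (1 without animal 18). In HA-negative nuclei 0 became 1 with DESeq2, and for the difference of the vector effects 0 became 3 without a filter. Between the fractions with empty, 388 became 661 without a filter (2 members called, Egr1 and Npas4) and 251 to 371 without 1 animal (251 without animal 19). With g4, 401 became 218 to 422 (lowest without animals 20, 21 and 22), with 0 to 1 members called. Of members below the filter, 1 was called in the permutation test and 0 with pairing by animal, without the libraries under 10000 genes and without any 1 animal. With pairing and without any 1 animal, Npas4 had the smallest p possible (sign-flip test, 0.0156, and exact permutation test, 0.00216). Those lost calls therefore do not show a weaker difference. The replicate block changed no other call of a member.

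Of 612 alternatives for 65 results on single genes, 564 kept their direction and side of the threshold, 12 lost it, 1 gained it and 35 changed sign, with 0 of these called in either setting. Among them, the correlations between hemispheres without the 2 farthest animals had no test and were compared by sign alone. Without the libraries under 10000 genes, log2 values changed sign for Bdnf (-0.12) and Egr3 (-0.44) with g4 in HA-positive nuclei, for Egr3 (0.17) between the fractions with empty, and for the Fosb ratios in those comparisons (-0.67 and 0.084). Egr3 in the first was -0.0070 with DESeq2 size factors, Homer1 in HA-negative nuclei 0.0076 without a filter, and Fos between the fractions with g4 0.061 without the library of animal 19. Leaving out each animal gave, for g4 against empty, Fos -0.97 to 0.0029 and Egr3 -0.086 to 0.20 in HA-positive nuclei, and Homer1 -0.055 to 0.037, Nr4a1 -0.054 to 0.29, Egr1 -0.11 to 0.022 and Npas4 -0.13 to 0.41 in HA-negative nuclei. For the difference of these effects it gave Fos -0.94 to 0.13 and Egr3 -0.32 to 0.078. Between the fractions it gave Fos -0.18 to 0.61 and Egr3 -0.50 to 0.025 with empty, and Fos -0.32 to 0.27 with g4. The correlation between hemispheres changed sign without the 2 farthest animals for Egr3 (-0.23 and -0.31 in HA-positive and HA-negative nuclei), Nr4a1 (0.44 in HA-positive) and Npas4 (0.21 in HA-negative). The cause of these changes was not tested. The median of all genes moved over the settings from -0.017 to 0.14 for g4 in HA-positive nuclei, from -0.18 to 0.012 between the fractions with empty, and from 0.010 to 0.12 for the difference. The animals did not correlate best with themselves throughout (1 to 3 of 7 by comparison). The alternatives for members below the filter other than the block, and the unfiltered fits of Npas4 other than the first, were chosen after seeing the data. Depth limits Npas4, Fosb and Junb most.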
